A study of Mus musculus with 4 samples.

Results

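The genes described here set the single CT26-scr library apart from all 3 CT26-shppp2r1a libraries at once. They were chosen on TPM, which gives a transcript as its share of all transcripts in a library, corrected for length, with the same total in each library. A gene was taken as higher where its lowest CT26-shppp2r1a library was at 2 TPM or more and at least 4 times the CT26-scr library, and as lower where the CT26-scr library was at 2 TPM or more and at least 4 times the highest CT26-shppp2r1a library. Gene names that start with Defa, H2- or Cyp and 10 further genes were left out by the same rule. Of 24444 genes, 65 were chosen, 37 higher and 28 lower in the knockdown libraries. The 37 were 0.372% of the 9941 genes at 2 TPM or more in every knockdown library, and the 28 were 0.278% of the 10065 genes at 2 TPM or more in the control. Because the choice rests on this contrast, the counts, levels and folds that follow are a description without a test.

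RNA of tumours grown from CT26, a colon carcinoma line of BALB/c mice, was sequenced, and the study used the reads to predict neoantigens. The 3 CT26-shppp2r1a libraries came from cells with a short hairpin RNA against Ppp2r1a, which encodes the scaffold of the phosphatase PP2A, and the CT26-scr library from cells with a scrambled hairpin. All tumours were labelled with the same line and strain and were taken at about 70 mm3. The labels name neither the hairpin sequence nor the mouse behind each tumour, so whether the knockdown libraries are separate animals is not known, and the control has no replicate. Values of the knockdown tumours are given in the order of replicates 1, 2 and 3.

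The 4 libraries held 24726440 to 28950004 expected counts. Ppp2r1a itself was at 40.2, 29.8 and 22.3 TPM in CT26-shppp2r1a replicates 1, 2 and 3, against 75.1 TPM in CT26-scr. Although the libraries were labelled as colon cancer tumours, 15 marker genes of small intestinal enterocytes summed to 20881, 52407 and 84244 TPM in CT26-shppp2r1a tumours and to 84891 TPM in the control. How much of the RNA came from CT26 cells was not tested, and whether the material matches its label cannot be settled from these values, so group names are used here only as labels. By that sum and by the count of genes apart, replicate 3 was the knockdown library nearest the control. The sample descriptions give both this library and the control the number 3, with no statement of its meaning. Without replicate 3, 516 genes in place of 37 passed on the higher side and 106 in place of 28 on the lower side. The median gene stood 1.24-fold above the control in TPM, and 0.987-fold after scaling by TMM factors, a shift well under 4-fold. Y-linked genes were present and Xist was at or near 0 in all 4 libraries, with no gene of either list among the 65.

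As background, the mucosa of the stomach and bowel secretes small peptides that shield the surface or kill microbes. Gastrokines and trefoil factors belong to gastric surface cells, alpha-defensins and secreted phospholipase to Paneth cells at the base of small intestinal crypts, and Reg lectins to enterocytes and the pancreas. Inbred mouse strains differ at several such genes, through inactivated alleles or through gene clusters of unequal copy number.

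**Figure D1:**
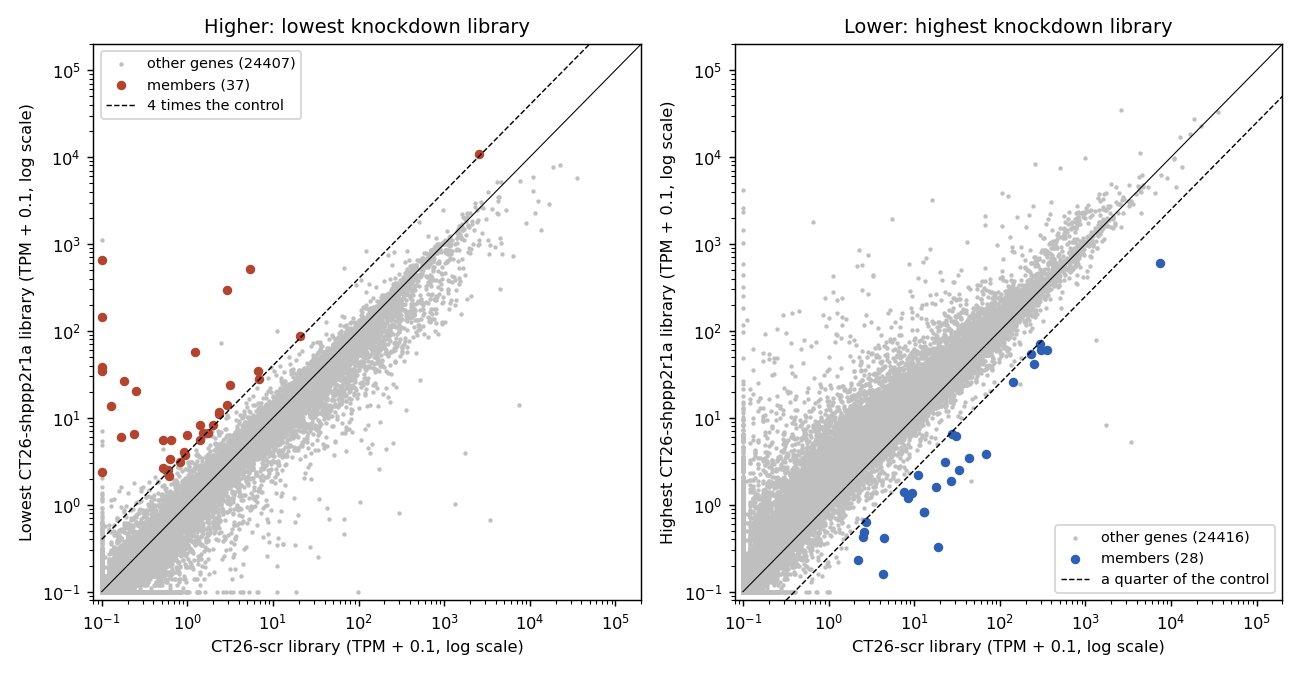
Each point is a gene, with the CT26-scr level on the x axis and the lowest (left panel) or highest (right panel) CT26-shppp2r1a level on the y axis, both as TPM + 0.1 on log scales. The 37 higher genes lie toward or past the upper dashed line and the 28 lower genes toward or past the lower one. Grey points beyond the dashed lines are genes under 2 TPM or left out by name, and the added 0.1 draws low genes toward the diagonal.

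The members fell into several roles, assigned after their values had been seen. Among the 37 higher genes were 5 alpha-defensins, 3 gastric mucosal peptides, 3 mast cell genes, 8 secreted defence or immune signalling genes, 3 metabolic enzymes, 1 transporter, 8 genes of cell regulation and 6 without an assigned function. Among the 28 lower genes were 7 metabolic enzymes, 7 transporters, carriers or ion-binding proteins, 7 genes of cell regulation, chromatin or housekeeping, 3 secreted defence or signalling genes, 1 alpha-defensin and 3 without an assigned function. Mast cell and gastric genes were on the higher side only.

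The gastric peptides were the clearest group without near-identical copies. Tff1, a trefoil factor of gastric surface mucous cells, was at 38.5, 47.1 and 116 TPM in CT26-shppp2r1a replicates 1, 2 and 3 and had no count in CT26-scr. Against a floor of 3 counts in the control, even the lowest knockdown library was 87.0-fold higher. The lower end of its 95% counting interval, taken against the 0 counts, was 70.2. Gkn2, a gastrokine that partners with trefoil factors, was at 26.8, 43.5 and 91.7 TPM against 0.08 TPM in CT26-scr, where it had 1 count. The lowest knockdown library was 334-fold above that single count, with a 95% counting interval from 59.5 to 13253. For Gkn1, the neighbouring gastrokine, the levels were 20.1, 25.4 and 48.1 TPM in CT26-shppp2r1a tumours and 0.15 TPM in the control, from 3 counts, a ratio of 134 with an interval from 45.4 to 651. All 3 peptides were highest in replicate 3 and lowest in replicate 1, and every knockdown library was far above the control. Such intervals and floors cover counting error only.

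Other gastric genes, picked after the data had been seen, did not stand with them. A set of 8 (Tff2, Muc5ac, Muc6, Gkn3, Atp4a, Atp4b, Pgc and Gif) summed to 5.61, 16.2 and 25.3 TPM in CT26-shppp2r1a tumours and to 6.50 TPM in the control. Only 3 of the 8 were above the control in every knockdown library, and Tff2, Muc5ac, Muc6 and Atp4b had no count in CT26-scr. Here and below, counts of listed genes above or below the control in every knockdown library are description only. The same share over all genes was not worked out. Tff2 was at 0.67, 0.97 and 17.7 TPM in replicates 1, 2 and 3. The defining parietal cell pump gene Atp4a was at 0.21, 0.19 and 0.12 TPM, against 0.05 TPM in CT26-scr.

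Gkn1 and Gkn2 lie next to each other on chromosome 6 with 22.4 kb between them and no coding gene in between, in the RefSeq annotation of GRCm38.p6. Their promoters, from 250 bases before to 50 bases after the start, are shown because the 2 genes moved together across the 4 libraries. Capitals mark GATAA or its reverse complement TTATC, the core bound by GATA factors, and TATAAA, the TATA box, searched on the gene's own strand. RefSeq gave a promoter for 48 of the 65 members.
Gkn1: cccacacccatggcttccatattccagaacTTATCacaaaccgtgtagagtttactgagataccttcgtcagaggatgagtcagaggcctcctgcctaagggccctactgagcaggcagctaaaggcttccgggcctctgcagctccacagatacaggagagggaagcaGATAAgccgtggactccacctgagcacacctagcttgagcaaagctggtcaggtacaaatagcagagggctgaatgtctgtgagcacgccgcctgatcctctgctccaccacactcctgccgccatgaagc
Gkn2: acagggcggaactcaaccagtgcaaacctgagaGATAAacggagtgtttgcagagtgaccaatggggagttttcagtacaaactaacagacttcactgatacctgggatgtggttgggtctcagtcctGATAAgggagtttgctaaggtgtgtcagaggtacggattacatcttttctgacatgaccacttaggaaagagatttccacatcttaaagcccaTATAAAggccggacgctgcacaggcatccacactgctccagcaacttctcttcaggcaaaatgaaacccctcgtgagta
The Gkn1 window is chr6:87350866-87351165 on the minus strand and the Gkn2 window chr6:87373115-87373414 on the plus strand. Each held 2 GATAA matches, and Gkn2 alone held a TATAAA. Among 32851 promoters of the same length, 25.4% held a GATAA on either strand and 8.32% a TATAAA. The share with 2 GATAA matches was not worked out, and the matches are given as a description.

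The alpha-defensins, pore-forming peptides of Paneth cells, included the most abundant genes without a control count. Gm7849, annotated as Defa42, was at 661, 2336 and 744 TPM in CT26-shppp2r1a replicates 1, 2 and 3, with no count in CT26-scr, and was at least 1438-fold higher against the floor. Gm21002 (Defa33) was at 187, 1015 and 146 TPM and Gm15308 (Defa32) at 73.4, 591 and 34.6 TPM, both again without a count in the control. Against the floor, Gm21002 and Gm15308 were 287-fold and 68.0-fold higher in their lowest knockdown libraries, with lower interval ends of 231 and 54.5. Gm21498 (Defa36) was at 519, 1918 and 850 TPM against 5.34 TPM in CT26-scr, and Gm14850 (Defa37) at 317, 751 and 293 TPM against 2.79 TPM. All 5 were highest in replicate 2, with no knockdown library near the control.

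A further defensin went the other way. Gm10104 (Defa35) was at 12.2, 60.9 and 12.8 TPM in CT26-shppp2r1a tumours and at 353 TPM in CT26-scr, 5.80-fold above the highest of them. It sits in the same chromosome 8 cluster, 326 to 499 kb from the 5 others. Defensin genes are near-identical, and between 84.8% and 100% of the 31-base words of these 6 genes' transcripts also occur in another gene's transcripts, so the split of reads among them is uncertain. The table listed a further 5 Defa genes past the same thresholds, all higher, which the rule leaves out by name. Paneth markers outside the defensins differed less. Without Pla2g2a, the 5 other genes of the Paneth list summed to 2628, 4776 and 2230 TPM in CT26-shppp2r1a tumours and to 1927 TPM in the control, with 2 of the 5 above the control in all 3.

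**Figure D2:**
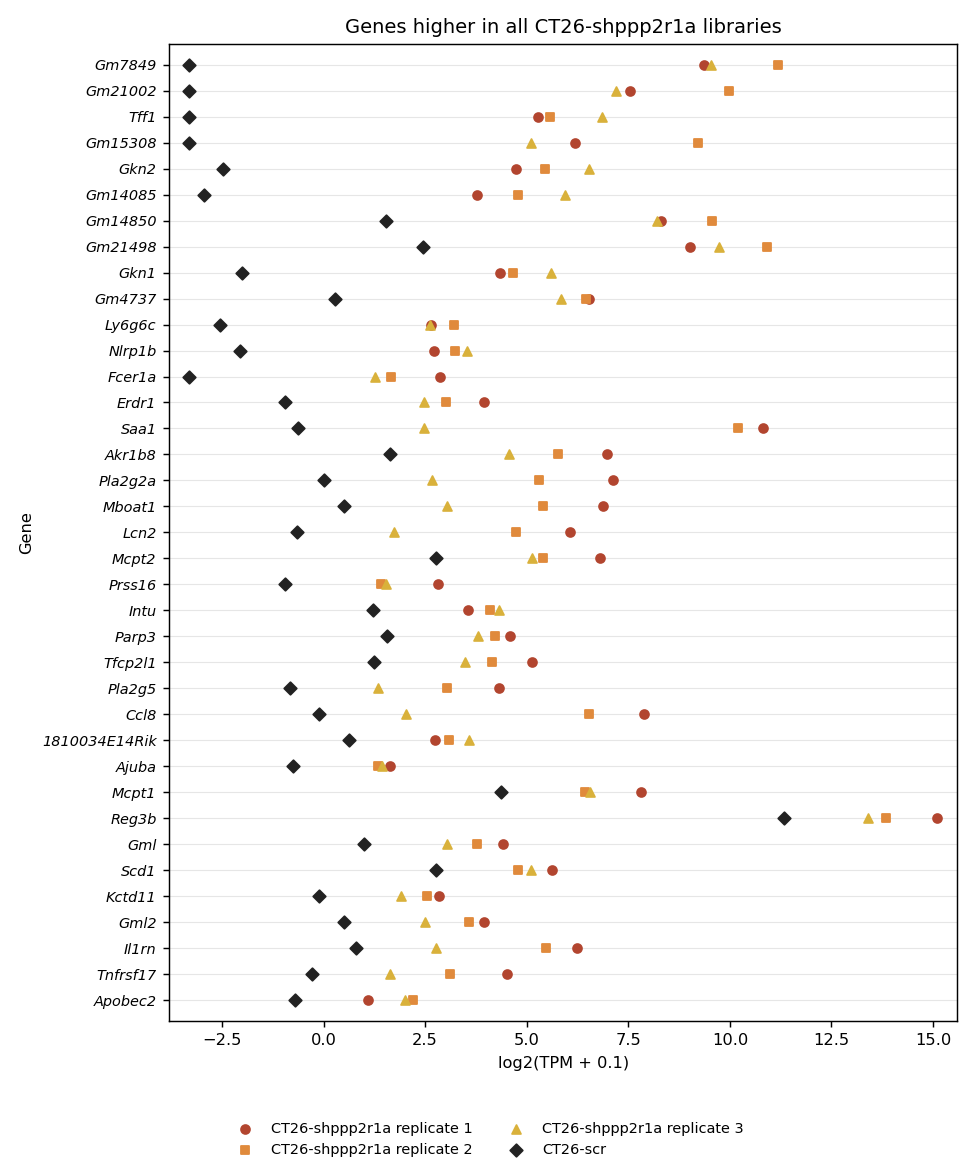
Levels of the 37 genes that were higher in all CT26-shppp2r1a libraries, one gene per row, with log2(TPM + 0.1) on the x axis and one marker per library. The CT26-scr marker lies left of all 3 knockdown markers in every row, and the 5 genes without a control count (Gm7849, Gm21002, Tff1, Gm15308 and Fcer1a) sit at the left edge.

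The mast cell genes were 2 chymases of mucosal mast cells and the binding chain of the IgE receptor. Mcpt1 was at 226, 86.7 and 94.7 TPM in CT26-shppp2r1a tumours against 20.5 TPM in CT26-scr. Mcpt2 was at 112, 42.5 and 34.9 TPM against 6.65 TPM, 5.25-fold above the control in its lowest knockdown library. Fcer1a was lower in level, at 7.22, 3.07 and 2.30 TPM, and had no count in the control. Against the floor of 3 counts its lowest knockdown library was 12.5-fold higher, with a lower interval end of 9.65. Replicate 1 was highest for all 3. The Mcpt genes lie 1.19 kb apart on chromosome 14 and share 5.14% to 6.71% of their 31-base words with other genes.

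Most other mast cell genes lay on the same side. A set of 7 (Cpa3, Tpsb2, Kit, Ms4a2, Cma1, Mcpt4 and Mcpt9), picked after the data had been seen, summed to 66.3, 18.9 and 7.28 TPM in CT26-shppp2r1a tumours and to 2.97 TPM in CT26-scr. In 6 of the 7 every knockdown library was above the control, and none of the 7 was at 0 in the control. Without that share over all genes, nothing about mast cells is read from this count. Tpsb2, a mast cell tryptase, was at 13.5, 2.82 and 0.12 TPM against 0.17 TPM, so replicate 3 was not above the control. In bulk RNA, fewer mast cells and less RNA per mast cell cannot be told apart.

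The secreted defence and immune signalling genes had the widest spread among the knockdown libraries. Saa1, an acute phase protein, was at 1810, 1168 and 5.41 TPM in CT26-shppp2r1a replicates 1, 2 and 3, against 0.55 TPM in CT26-scr. It shares 46.8% of its 31-base words with Saa2 and Saa3. The knockdown libraries differed 335-fold among themselves, while replicate 3 was 9.84-fold above the control with a counting interval from 3.96 to 31.9. Ccl8, a chemokine for monocytes and T cells, was at 238, 92.7 and 3.98 TPM against 0.82 TPM. Lcn2, which sequesters bacterial siderophores, had 67.2, 26.5 and 3.22 TPM against 0.53 TPM. All 3 had high levels in replicates 1 and 2 and a low level in replicate 3.

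Il1rn, the interleukin 1 receptor antagonist, shared that order at 74.8, 44.5 and 6.68 TPM in CT26-shppp2r1a tumours, against 1.64 TPM in the control. So did Tnfrsf17, a plasma cell receptor, at 22.6, 8.51 and 2.99 TPM against 0.72 TPM. For Saa1, Ccl8, Lcn2 and Tnfrsf17 the control had 5 to 9 counts, and the lower end of each counting interval was under 4-fold. Of the 60 listed cytokine, chemokine and receptor genes in the table, 23 were at 2 TPM or more in every knockdown library. Ccl8 and Il1rn were the 2 members among them (8.7%, beside 0.372% of all genes at that level). The list was drawn up with earlier results of these data known, so nothing is read from this share. The interferon-stimulated list had 0 members among 52 genes at that level. With a share of 0.372% over all genes, a count of 0 is not read as a result. Ifi44, which passed the thresholds, is left out by name.

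Neutrophil and B and plasma cell markers lay on the same side as this group, and their part in it was not tested. Without Lcn2, the 9 other neutrophil markers summed to 465, 215 and 6.71 TPM in CT26-shppp2r1a tumours and to 3.69 TPM in CT26-scr. Of the 9, 6 were above the control in all 3, a count given like those below without its share over all genes. Camp, Elane and Ngp were at 0 in the control, and Elane was at 0 in every library. The 8 B and plasma cell markers other than Tnfrsf17 summed to 8728, 2994 and 839.5 TPM against 284 TPM, with 5 of 8 above the control in all 3 and none at 0. This side was not particular to these lists. Fibroblast and mesenchymal markers summed to 923, 456 and 199 TPM against 161 TPM, and squamous epithelium markers to 125, 73.3 and 36.7 TPM against 16.9 TPM. The colonocyte list without Saa1 summed to 5121, 5929 and 5040 TPM against 4747 TPM. Macrophage, T cell and smooth muscle sums did not lie wholly above the control. Macrophage markers summed to 1468, 946 and 283 TPM against 288 TPM, with 4 of 9 above the control in all 3. T cell markers summed to 73.1, 53.6 and 81.7 TPM against 61.8 TPM, and smooth muscle markers to 764, 446 and 255 TPM against 454 TPM. The large bowel gene Car1, left out by name, was at 1439, 418 and 4.76 TPM and had no count in the control.

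The secreted phospholipases formed a neighbouring pair on chromosome 4. Pla2g2a, a bactericidal enzyme of Paneth cells, was at 140.4, 39.3 and 6.21 TPM in CT26-shppp2r1a replicates 1, 2 and 3 and at 0.90 TPM in CT26-scr, from 11 counts. Pla2g5, a related enzyme, was at 19.96, 8.12 and 2.41 TPM against 0.46 TPM. Both were highest in replicate 1 and lowest in replicate 3. Their annotated spans overlap and no 31-base word of either occurs in another gene. Pla2g2a is inactivated by a mutation in C57BL/6 mice, whose genome is the reference, and RefSeq lists it as a transcribed pseudogene.

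The Reg lectins lay on opposite sides of the control. Reg3b, an antibacterial lectin of enterocytes, was the most abundant member at 35165, 14782 and 10755 TPM in CT26-shppp2r1a tumours, against 2577 TPM in CT26-scr, 4.17-fold above it in the lowest library. Reg1, a regenerating protein known from pancreas and bowel, was at 14.1, 23.9 and 606 TPM against 7437 TPM in CT26-scr, which was 12.3-fold above the highest knockdown library. Replicate 3 held the lowest Reg3b and the highest Reg1 of the knockdown libraries.

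Other genes of the Reg family, named after the values had been seen, also split. Reg3g, the closest relative of Reg3b, was at 7579, 2795 and 1786 TPM in CT26-shppp2r1a tumours against 506 TPM in CT26-scr, on the same side as Reg3b but under 4-fold in replicate 3. Reg3a was at 92.5, 272 and 439 TPM against 580 TPM, and Reg3d at 0.56, 0.60 and 1.21 TPM against 2.66 TPM. Only Reg3g was above the control in all 3. The pancreatic acinar list, without Reg1, summed to 5929, 8013 and 9586 TPM in CT26-shppp2r1a tumours and to 10881 TPM in the control. That sum includes Zg16, which goblet cells also make, and the defining acinar enzymes Cela2a, Cela3b, Cpa1, Prss1, Try4, Try5 and Try10 were at 0 in the control. Of these, Cela3b, Prss1, Try4, Try5 and Try10 were at 0 in all 4 libraries. In all, 7 genes of the list were at 0 in every knockdown library, so such zeros do not set the control apart.

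Reg3b and Reg1 lie 52.5 kb apart on chromosome 6, with 3 coding genes starting between them. Their promoters are shown because these neighbours went in opposite directions, with the same motifs in capitals.
Reg3b: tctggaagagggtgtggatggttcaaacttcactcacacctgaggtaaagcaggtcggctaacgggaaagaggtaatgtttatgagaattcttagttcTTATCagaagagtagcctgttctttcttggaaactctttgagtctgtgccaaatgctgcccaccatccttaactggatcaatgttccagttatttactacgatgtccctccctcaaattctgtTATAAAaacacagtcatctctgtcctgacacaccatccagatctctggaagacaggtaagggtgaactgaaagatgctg
Reg1: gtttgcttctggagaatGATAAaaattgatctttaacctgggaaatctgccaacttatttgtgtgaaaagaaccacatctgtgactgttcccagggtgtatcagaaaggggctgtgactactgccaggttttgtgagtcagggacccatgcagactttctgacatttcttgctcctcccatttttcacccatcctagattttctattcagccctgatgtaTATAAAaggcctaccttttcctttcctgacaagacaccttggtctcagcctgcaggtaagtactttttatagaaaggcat
The windows are chr6:78370635-78370934 for Reg3b and chr6:78425733-78426032 for Reg1, both on the plus strand. Each held 1 GATAA match and 1 TATAAA, so these letters did not separate the 2 genes.

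The other secreted proteins on the lower side were near the detection limit. Nmu, the neuropeptide neuromedin U, was at 0.53, 0.40 and 0.16 TPM in CT26-shppp2r1a tumours against 2.61 TPM in CT26-scr. Wfdc15b, a small cysteine-rich secreted protein, had 1 count in replicate 3 and none in the other two, against 18 counts and 2.13 TPM in the control, a ratio of 16.4 with an interval from 2.59 to 683.

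Metabolic enzymes were mostly on the lower side. Mogat1, an acyltransferase that makes diacylglycerol, had 1 count in replicate 1 and none in replicates 2 and 3, at 0.06, 0 and 0 TPM, against 82 counts and 4.22 TPM in CT26-scr. The control was 70.3-fold above replicate 1, with a counting interval from 12.3 to 2811. Its intestinal relative Mogat2, named after its values were seen, was at 137, 401 and 543 TPM against 533 TPM and was no member. Ugt1a9, a glucuronosyltransferase, was at 0.59, 0.74 and 3.74 TPM in CT26-shppp2r1a tumours against 68.0 TPM in CT26-scr, 18.2-fold above the highest. Genes of the Ugt1 locus share their last exons, 67.8% of the 31-base words of Ugt1a9 occur in other genes, and the 6 other Ugt1 genes examined summed to 124, 209 and 369 TPM against 363 TPM.

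Gm766, a sulfotransferase annotated as Sult6b2, was at 0.70, 1.35 and 71.2 TPM in CT26-shppp2r1a replicates 1, 2 and 3 and at 298 TPM in CT26-scr. Its knockdown libraries differed 102-fold, so its call of 4.19-fold rests on replicate 3. Fbp1, a gluconeogenic phosphatase, was at 4.96, 12.4 and 26.1 TPM against 143.9 TPM. The remaining lower enzymes, Acat3, Sat2 and Hddc3, stood 4.34- to 7.30-fold below the control at their highest knockdown library, and Acat3 shares 46.9% of its words with Acat2.

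On the higher side, Scd1, the desaturase that makes monounsaturated fatty acids, was at 49.0, 27.6 and 34.1 TPM in CT26-shppp2r1a tumours against 6.68 TPM in CT26-scr. Its 3 libraries lay within 1.78-fold of each other. Mboat1, a lysophospholipid acyltransferase, was more dispersed at 116, 42.4 and 8.07 TPM against 1.32 TPM. Akr1b8, an aldo-keto reductase, was at 126, 54.9 and 23.6 TPM against 3.03 TPM, while its paralogue Akr1b7 was at 24.8, 53.9 and 173 TPM against 154 TPM and had 2 knockdown libraries below the control and 1 above it.

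Of the 8 transporters, carriers and ion-binding proteins, 7 were lower. S100g, the calcium-binding protein calbindin-D9k of the duodenum, was at 5.09, 8.66 and 41.6 TPM in CT26-shppp2r1a tumours and at 254 TPM in CT26-scr. Slc13a1, a sulfate transporter, was at 15.1, 18.9 and 54.7 TPM against 231 TPM. Slc16a9, a monocarboxylate transporter family member, was at 0.54, 0.24 and 1.52 TPM against 17.8 TPM, and the pseudogene Slc22a13b-ps, with 57.2% of its words shared with Slc22a13, at 0.24, 0.39 and 2.10 TPM against 11.0 TPM. For all 4 genes replicate 3 was the knockdown library nearest the control. The 15 enterocyte markers, 8 of which were below the control in every knockdown library and none of which was at 0 in the control, had that same nearest library, and none of the 15 was itself a member.

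Mt2, a metal-binding metallothionein, did not follow that pattern. It was at 59.9, 50.9 and 56.6 TPM in CT26-shppp2r1a replicates 1, 2 and 3, against 305 TPM in CT26-scr, with a mean of 55.8 ± 4.51 TPM (SD, n = 3) in the knockdown. Its 3 libraries lay within 1.18-fold of each other, the narrowest spread of all members whose knockdown levels were above 0. The neighbouring paralogue Mt1, named after its values were seen, was at 427, 445 and 531 TPM against 615 TPM, on the same side but far from 4-fold.

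The 1 higher gene of this role was Gm14085, annotated as the nucleoside transporter gene Slc28a2b. It was at 13.7, 27.3 and 61.2 TPM in CT26-shppp2r1a tumours and at 0.03 TPM in CT26-scr, from 2.19 expected counts. The lowest knockdown library was 455-fold above that level, with an interval from 137 to 4121. Of its 31-base words 39.4% occur in other genes, mainly Slc28a2, which was at 95.8, 199.9 and 429 TPM against 473 TPM, so the 2 copies were on opposite sides of the control.

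**Figure D3:**
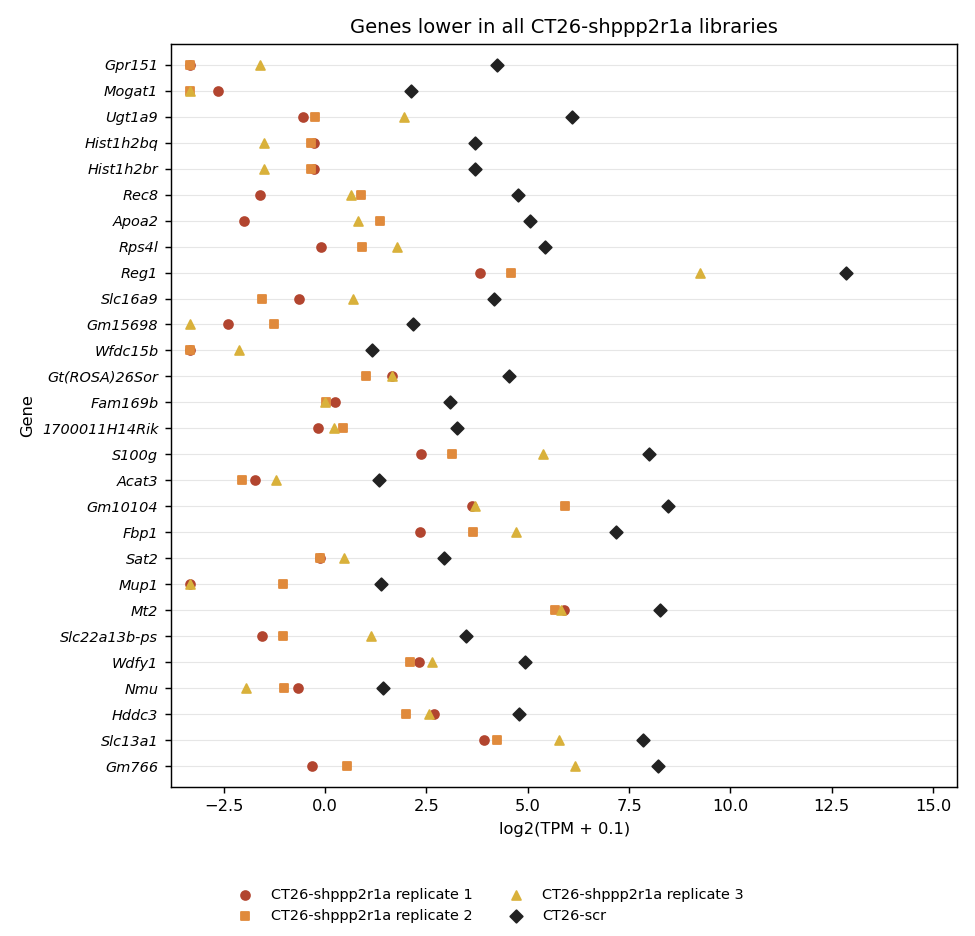
Levels of the 28 genes that were lower in all CT26-shppp2r1a libraries, one gene per row, with log2(TPM + 0.1) on the x axis and one marker per library. The CT26-scr marker lies right of all 3 knockdown markers in every row, with Gpr151 and Mogat1 farthest from them.

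Several genes of cell regulation were even among the knockdown libraries. Nlrp1b, an inflammasome sensor, was at 6.44, 9.25 and 11.4 TPM in CT26-shppp2r1a replicates 1, 2 and 3, against 0.14 TPM in CT26-scr, from 10 counts. That is 46.0-fold in the lowest library, with an interval from 24.8 to 96.7, within a 1.77-fold spread of the knockdown libraries. The adjoining Nlrp1a was at 2.55, 1.67 and 1.04 TPM against 0.39 TPM. Its lowest knockdown library was under the 2 TPM minimum and also under 4-fold.

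Wdfy1, an endosomal adaptor protein, was as even on the other side, at 4.90, 4.15 and 6.08 TPM in CT26-shppp2r1a tumours and at 30.5 TPM in CT26-scr. Gt(ROSA)26Sor, the non-coding transcript of the Rosa26 locus, was at 3.03, 1.93 and 3.02 TPM against 23.0 TPM. It overlaps Thumpd3 on the opposite strand, which was at 35.5, 28.0 and 17.5 TPM against 19.5 TPM. Whether the counting used strand is not given, so reads from the overlap cannot be assigned.

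Gpr151, an orphan receptor best known from habenular neurons, had no count in replicates 1 and 2 and 6 counts in replicate 3, at 0, 0 and 0.23 TPM, against 501 counts and 18.7 TPM in CT26-scr. The control was 81.2-fold above replicate 3, with an interval from 37.0 to 222. Rec8, a meiotic cohesin subunit, was at 0.23, 1.76 and 1.46 TPM against 26.9 TPM. Rps4l, a ribosomal protein S4 copy, was at 0.83, 1.79 and 3.31 TPM against 43.2 TPM. For all 3 genes no knockdown library came near the control.

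The histone genes Hist1h2bq and Hist1h2br had the same values, at 0.73, 0.69 and 0.25 TPM in CT26-shppp2r1a tumours and 12.9 TPM in CT26-scr. They share 98.3% and 89.5% of their words with other histone genes, so they are 1 observation rather than 2.

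The remaining higher genes of cell regulation ranged from 4.02-fold for Apobec2, a cytidine deaminase family member of muscle, to 13.1-fold for Erdr1, which had 5 counts in the control and lies at the pseudoautosomal end of chromosome X. Erdr1 shares 62.0% of its 31-base words with Gm47283, so its split of reads is uncertain. Tfcp2l1, a transcription factor of epithelia and of pluripotent cells, was at 35.1, 17.5 and 11.1 TPM in CT26-shppp2r1a tumours against 2.26 TPM in CT26-scr. Parp3, a member of the poly(ADP-ribose) polymerase family that acts in DNA repair, was at 23.8, 18.4 and 13.9 TPM against 2.84 TPM. Intu, a planar polarity effector of ciliogenesis, was at 11.6, 16.9 and 19.9 TPM against 2.23 TPM, and Ajuba, an adaptor protein of cell junctions, at 3.00, 2.43 and 2.61 TPM against 0.49 TPM. The knockdown libraries lay within 1.72-fold of each other for Intu and 1.23-fold for Ajuba.

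Some members without an assigned function were also far apart. Gm4737 was at 92.2, 87.2 and 57.0 TPM in CT26-shppp2r1a replicates 1, 2 and 3 and at 1.12 TPM in CT26-scr, 50.9-fold in the lowest library. It shares 95.6% of its words with Ahcy and other copies, so its split of reads is uncertain. Ly6g6c was at 6.14, 9.08 and 5.99 TPM against 0.07 TPM, from 1 count, with a ratio of 85.6 and an interval from 14.96 to 3418. Gml and Gml2, which overlap on chromosome 15, were both higher, at 4.30-fold and 4.17-fold in their lowest libraries. On the lower side, Fam169b had 1.09, 0.92 and 0.90 TPM against 8.37 TPM and a spread of 1.21-fold. The other 4 unassigned genes were Prss16 and 1810034E14Rik, 6.10-fold and 4.57-fold higher at their lowest knockdown library, and Gm15698 and 1700011H14Rik, 13.7-fold and 7.56-fold lower at their highest.

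**Figure D4:**
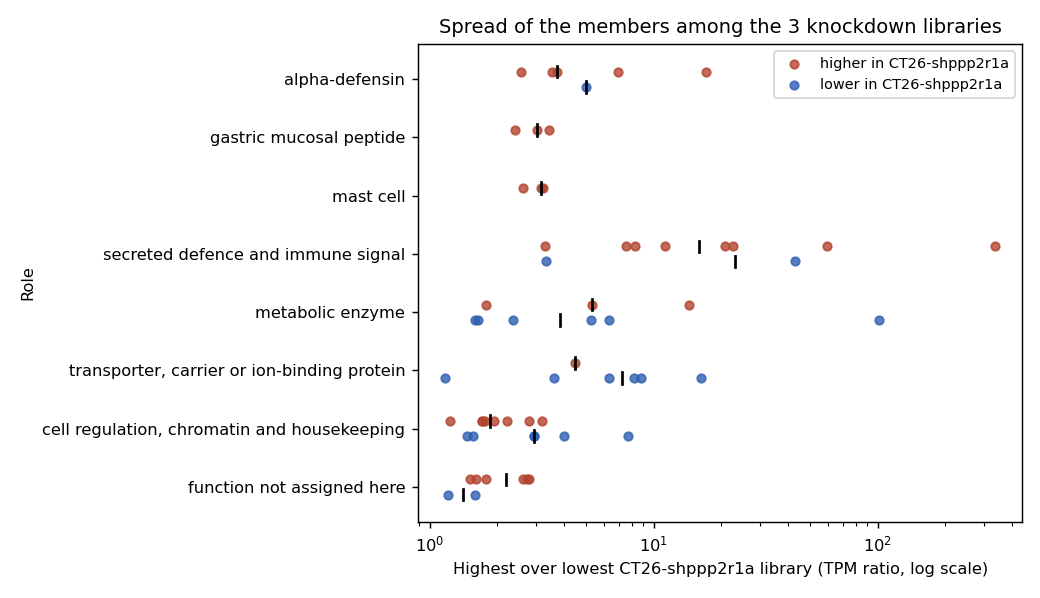
Ratio of the highest to the lowest CT26-shppp2r1a library for each member (x axis, log scale) by role (y axis), with higher and lower genes as separate points and the median of each as a black bar. Secreted defence genes reach 335-fold (Saa1) and cell regulation genes stay under 8-fold, while 5 lower genes with 0 TPM in a knockdown library have no ratio and are not drawn.

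The spread among the knockdown libraries was wider for the members than for all genes past the same 2 TPM level. The highest knockdown library was a median 3.14-fold above the lowest for the 37 higher genes, against 1.58-fold over the 9941 genes at 2 TPM or more in every knockdown library. For the 28 lower genes the median was 3.61-fold over those with a ratio, against 1.59-fold over the 10065 genes at 2 TPM or more in the control. The lower members had a median knockdown mean of 1.09 TPM, and the 10065 genes were not matched to that level. Few counts can widen such ratios, and the 16.3-fold spread of Apoa2 rests on 1 count in replicate 1. Of the 37 higher genes 9 lay within 2-fold and 7 exceeded 10-fold, where all genes gave 68.7% and 1.02%. Of the 23 lower genes with a ratio 7 lay within 2-fold and 3 exceeded 10-fold, where all genes gave 68.0% and 1.02%. Replicate 1 was highest for 23 of the 37 higher genes, and replicate 3 was the knockdown library nearest the control for the same number. Replicate 3 was also nearest for 14 of the 28 lower genes. Replicate 1 highest, 2 between and 3 lowest was the order of 19 of the 37 higher and 4 of the 28 lower genes, and of 54.9% and 53.5% of all genes at those levels. Replicate 1 was therefore highest, and replicate 3 lowest, in at least 54.9% of the 9941 genes. The full shares over all genes were not worked out, so nothing about the members is read from the 23 of 37 or the 14 of 28.

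The choice was repeated with 1 knockdown library left out, and the chosen genes were counted in that library. On the lower side, those also 4-fold apart in it are the 28 members themselves in every case. On the higher side they are the 37 members and genes under 2 TPM in that library. These counts therefore restate the rule and are no separate support for the members. Of the genes chosen with replicates 1 and 2 alone, 86 of 516 higher genes (16.7%) and 28 of 106 lower genes (26.4%) were also 4-fold apart in replicate 3. Over all genes at 2 TPM or more on the high side, the shares 4-fold apart in replicate 3 were 0.869% higher and 0.576% lower. With replicate 1 left out, 38 of 44 higher and 28 of 31 lower genes were 4-fold apart in it, beside 7.51% and 3.26% of all genes. With replicate 2 left out, the counts were 40 of 43 and 28 of 38, beside 2.35% and 1.23% of all genes. Every count is taken against the same control library that chose the genes, so an unusual control and likeness among the knockdown libraries cannot be told apart.

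Genes known to vary between strains were set beside the members. Of 39 strain-variable loci listed with earlier results of these data known, 5 held a member, and 3 of the 5 (Apoa2, Pla2g2a and Wdfy1) were listed as a single gene. The higher side held Nlrp1b and Pla2g2a, 2 of 68 listed genes at 2 TPM or more in every knockdown library (2.94%, beside 0.372% of all genes at that level). The lower side held Apoa2, Mup1 and Wdfy1, 3 of 78 listed genes at 2 TPM or more in the control (3.85%, beside 0.278%). Because the lists were not drawn up independently of these data, nothing is read from these shares. Ly6g6c had been listed with the Ly6 cluster but lies on chromosome 17, outside it, and is not counted here. All 4 libraries were labelled BALB/c, and the strain of origin was not tested here.

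Apoa2, an apolipoprotein of high-density lipoprotein with protein variants that differ between strains, was at 0.15, 2.44 and 1.67 TPM in CT26-shppp2r1a replicates 1, 2 and 3, against 33.3 TPM in CT26-scr. Its relative Apoa1 was at 7586, 18880 and 27615 TPM against 18537 TPM and lay on both sides of the control. The 8 hepatocyte markers other than Apoa2 summed to 1.84, 14.2 and 15.8 TPM in CT26-shppp2r1a tumours and to 25.5 TPM in CT26-scr. All 8 of 8 were below the control in all 3, with none at 0 in the control. The share of all genes below the control in all 3 was not worked out. Mup1, a major urinary protein of a cluster with variable copy number, was at 0, 0.39 and 0 TPM against 2.50 TPM, and shares 70.2% of its words with other Mup genes.

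Nlrp1b alleles are known for their strain-dependent response to anthrax lethal toxin, and the Pla2g2a mutation was given above. Both were under 1 TPM in the control, but they differed in evenness, with a spread of 1.77-fold for Nlrp1b and 22.6-fold for Pla2g2a. The names the rule leaves out held 12 further higher genes, among them H2-Eb1, H2-Q7 and H2-T9 of the major histocompatibility complex, and 5 further lower genes.

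By position, 22 of the 65 members lay within 1 Mb of another member, 16 of them outside the defensins. Adjacent family members such as Mcpt1 with Mcpt2 and Gml with Gml2 are among them. The same share over all genes was not worked out, so no clustering is read from this count. Of the 26 such pairs 11 had members on opposite sides, among them Reg3b with Reg1, Sat2 with Kctd11, and Prss16 with the histones Hist1h2bq and Hist1h2br. These pairs count some loci repeatedly. Gm10104 is opposite each other defensin member, with an uncertain split of reads. Rec8 is opposite both adjacent Mcpt genes, and the histones are 1 observation. Members made up 0.627% of the 10362 genes that reached 2 TPM on either side. The highest shares were on chromosome 6 (9 members, 4 higher and 5 lower, 1.77% of 508 genes), chromosome 13 (1.604%) and chromosome 14 (1.40%). Sequence shared with other genes touched 13 members at 50% or more of their 31-base words and 21 at 10% or more, while 22 had no shared word.

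Around the thresholds the values were as follows. Just inside 4-fold on the higher side were Apobec2 at 4.02, Il1rn at 4.07 and Scd1 at 4.13, and just outside were Ceacam10 at 3.96, C4b at 3.85 and Paqr8 at 3.83. On the lower side Gm766 at 4.19, Slc13a1 at 4.22 and Hddc3 at 4.34 were just inside, and Klra17 at 3.97, D630023F18Rik at 3.97 and Ccdc42 at 3.86 just outside. At the 2 TPM level, the higher genes nearest it were Apobec2 at 2.05, Fcer1a at 2.30 and Pla2g5 at 2.41 TPM inside, and Mir8112 at 1.92, Mmp12 at 1.74 and Mal at 1.72 TPM outside. The lower genes nearest it were Wfdc15b at 2.13, Acat3 at 2.41 and Mup1 at 2.50 TPM inside, and Tmem89 at 1.66, Slc22a13 at 1.51 and Notum at 1.49 TPM outside.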

How the data were processed

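RNA from 3 CT26-shppp2r1a tumours and 1 CT26-scr tumour was measured in 1 table of 24444 genes. The authors deposited expected counts (estimated counts that need not be whole, 5.30% to 5.89% of which were not) for each library. The authors also deposited TPM and FPKM values, which are scaled by gene length and library total. Columns with the authors' own fold and posterior probability for the comparison were not used. Bowtie 0.12.2 and the builds mm8 and mm10 appear in the submitters' processing notes, their roles unstated. Which program counted the reads, and on which annotation, is not given in the sources used here. Columns were matched to samples by their descriptions, with none left over.

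The rule was applied to TPM. The members, their roles and the gene lists were chosen with earlier results of these data known. Genes were named by rank of fold with 0.1 TPM added (15 in each direction), by the strain lists, as up to 4 examples of every other list, at the thresholds, and as neighbours, which covered 55 members. The 10 others were named after their values were seen. Positions and promoters are from RefSeq for GRCm38.p6, in which all 65 members were found by symbol or synonym, and the table itself holds no coordinates. Shared 31-base words were counted over GENCODE M21 transcripts. Counting intervals are exact (Clopper-Pearson) at 95%, on counts converted by each gene's own count per TPM. Where a library had no count, the median over genes was used for the conversion. For the fold alone, a control without counts was set to a floor of 3. TMM and RLE factors came from edgeR 4.0.16 in R 4.3.3. Counts and figures were made in Python 3.11.15 with pandas 2.3.3, scipy 1.17.1 and matplotlib 3.10.9. The rule and the intervals were tested on simulated data. Alternatives changed the unit, scaling, added TPM, fold, minimum level, count filter, knockdown summary and libraries.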

Additional observations from a re-analysis of the deposited data

How the results depend on the processing

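Against 37 higher and 28 lower genes, 30 and 24 passed in FPKM, 30 and 36 after TMM scaling, 31 and 38 after RLE scaling, and 31 and 25 with 50 expected counts. The median gene moved by -0.34 on the log2 scale with TMM factors and by -0.36 with RLE. Adding 1 TPM left 18 higher and 21 lower genes. A 2-fold rule gave 179 and 149 genes and an 8-fold rule 15 and 12. Without a minimum level 526 and 280 passed, and at 10 TPM 18 and 19. Counting intervals wholly past 4-fold held for 21 higher and 20 lower genes. The median knockdown library in place of the extreme gave 529 and 119. Putting the left-out names back gave 49 and 33. With a knockdown library left out, the counts ranged from 43 to 516 higher and from 31 to 106 lower, and the highest of each was without CT26-shppp2r1a replicate 3. No paired analysis was possible because the groups share fewer than 2 replicate numbers. A single control library gives no replicate error on its side, so a feature of that tumour and an effect of the knockdown cannot be told apart.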
